A study of Rattus norvegicus with 34 samples.

Results

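Myclobutanil and propiconazole, both fed at 500 ppm, were compared directly in the testis of adult rats. The arrays labelled M500 (myclobutanil, replicates 01, 02 and 04) were set against those labelled P500 (propiconazole, replicates 01 to 04), which made 7 of the 31 arrays that hold values and the single pair of these compounds at a matched dose. The series labelled 34 testis samples of male Wistar Han rats, 1 animal per Affymetrix rat genome array, and M500 replicate 03 was among the 3 that its labels mark as left out. M500 and P500 animals were exposed by diet, starting on gestation day 6 and ending on postnatal day 92, when the testis was taken, and 6 Control arrays came from rats given 0 ppm. The other 18 arrays (5 M2000, 5 P2500, 4 T500 and 4 T1800, named for the compound, with T for triadimefon, and the dose in ppm) entered the statistical model but are described here only where they bear on the comparison. Which animals were littermates is not stated in the labels, and littermates would not be independent.

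Triazole fungicides kill fungi by blocking the sterol demethylase Cyp51 through the nitrogen of their triazole ring, which binds the heme iron of cytochrome P450 enzymes. Mammals use the same enzyme to make cholesterol, and in the testis cholesterol feeds the Leydig cell, where Star brings it into the mitochondrion and a chain of P450 and dehydrogenase enzymes turns it into testosterone. Myclobutanil and propiconazole share the triazole ring. Myclobutanil carries a nitrile, whereas propiconazole bears a dichlorophenyl group and a dioxolane ring. The question put to the data was whether rats fed the 2 compounds at the same dietary dose differed in testis transcripts.

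One of the 3 M500 arrays stood apart from the other 6 before any gene was considered. M500 replicate 04 had a standard deviation of deposited scores of 0.972, against 0.753 and 0.711 in the other M500 arrays and 0.651 to 0.731 in P500. Its bioB hybridisation control scored 2.1, against 0.815 to 0.953 on the other 6 arrays, and its median correlation with the other M500 and P500 arrays was 0.969, against 0.984 to 0.993. The actin gap, which is the 3′ minus the 5′ beta-actin control and is larger where less of the 5′ end is left, was 0.88, 0.764 and 1.6 in M500 and 0.85, 1.1, 1.27 and 1.33 in P500. Its mean was 1.08 ± 0.455 in M500 (SD, n = 3) and 1.14 ± 0.213 in P500 (SD, n = 4), a difference of -0.0533 (two-sided exact permutation test, p = 0.857, smallest possible p 0.0286). Control replicate 02 had a similarly wide spread of scores (0.934) and bioB score (2.19). Values without M500 replicate 04 are given beside the leading results and beside each named gene whose difference moved by over 1.5 times or turned sign without it. Leaving that array out made the 2 groups less even in actin gap, with a difference of -0.314 (two-sided exact permutation test, p = 0.2). All levels are quantile-normalized scores, a log-like unit of unknown base, so that differences are in score units and not folds.

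**Figure D1:**
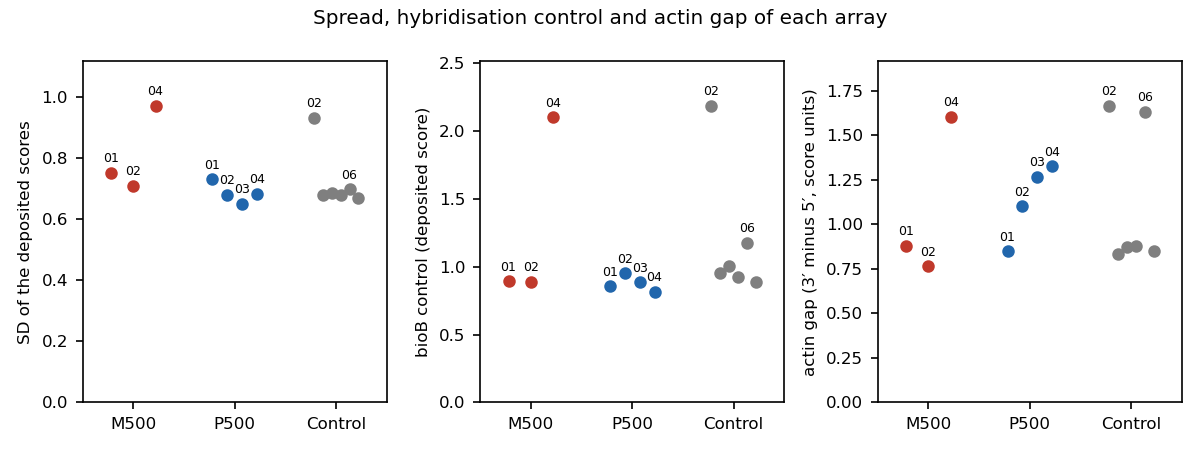
SD of the deposited scores, bioB control and actin gap (y axes, score units) of each M500, P500 and Control array, with replicate numbers beside the M500 and P500 points and 2 of the Control points. M500 replicate 04 and Control replicate 02 lie above the other arrays in the first 2 panels, at SDs of 0.972 and 0.934.

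The tissue check was met in both groups. The spermatid gene Odf1, for a sperm tail protein, scored 4.52, 4.52 and 4.3 in M500 and 4.49 to 4.52 in P500, and the meiotic axis gene Sycp3 scored 2.77, 2.94 and 3.16 in M500 and 2.76 to 3.05 in P500. The median over all probe sets was 0.0138. Liver RNA was looked for because albumin, Alb, varied between arrays: it scored 1.62, 0.525 and 0.051 in M500, 0.0157 to 0.347 in P500 and 0.132 to 1.65 in Control. Of the 22 liver genes measured, 0 had p under 0.05. That count says little, because the fit takes its spread from all 7 groups. In P2500 replicates 02, 03 and 04 Alb scored 3.89 to 4.15, which widens the error of liver genes. Cyp2c11 had a standard error of 0.331, against SDs of 0.146 in M500 and 0.0385 in P500. The median difference of the list was 0.0369, or 0.0852 without M500 replicate 04. Its mean level was 0.158, -0.011 and -0.085 in M500 and -0.0728 to -0.0434 in P500. The part of liver RNA in the differences of M500 replicate 01, the array with the highest Alb of the 7, was not tested.

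No probe set differed between M500 and P500 after adjustment. With limma, 0 of 31042 probe sets (0%) had an adjusted p under 0.05, and the smallest adjusted p was 0.156. At an unadjusted p under 0.05 there were 2321 (7.48%), of which 1124 were higher in M500 (3.62%) and 1197 lower (3.86%). Leaving out M500 replicate 04 made that 1434 (4.62%), with 1 call, an unnamed probe set, 1391372_at (0.00322% of those tested, difference 0.267, adjusted p = 0.0391). It measured 0.194, 0.411 and 0.0325 in M500, and -0.0123 to 0.0601 in P500, so the array left out was the one M500 array that lay within the P500 values. Without M500 replicate 01 there were 19 calls, and without M500 replicate 02 there was 1, Kremen1, while leaving out any 1 P500 array left 0. In both of those M500 fits replicate 04 was 1 of only 2 M500 arrays. Kremen1 measured 0.234 on it, against -0.0131 and -0.22 on M500 replicates 01 and 02.

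The intervals were narrow for most probe sets, many of which scored under the bioB control. The 95% interval of a difference reached a median of 0.0846 to either side, and 28771 probe sets (92.7%) had an interval that lay wholly between -0.3 and 0.3. On each M500 and P500 array 6.55% to 16.1% of probe sets lay above bioB, so most of these intervals belong to probe sets under that control. Background itself was not measured here. The limit of 0.3 has no known size in folds. A difference of over 0.5 in either direction was estimated for 11 probe sets. The 3 M500 values all lay above the 4 P500 values for 888 probe sets (2.86%) and all below for 964 (3.11%). Of the 35 ways to split these arrays into groups of 3 and 4, a share of 0.0286 gives each such order. The shares seen were close to that, so a lack of overlap in a single gene is only a description. A p above the threshold does not show that the 2 compounds act alike, and the animals per group limit the precision.

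Against Control, the 2 compounds shared the same 6 control arrays, so their values are given side by side. For M500 minus Control 0 probe sets passed (0%, smallest adjusted p 0.0928, limma), with 2793 (9%) at an unadjusted p under 0.05. For P500 minus Control 0 passed (0%, smallest adjusted p 0.96), with 1042 (3.36%) at an unadjusted p under 0.05. With the 5 arrays left out whose actin gap exceeded 1.4, among them M500 replicate 04 and Control replicates 02 and 06, these contrasts had 18 and 198 calls. The P500 arrays then had actin gaps of 0.85 to 1.33, and the Control arrays that were left 0.833 to 0.878. That contrast was therefore uneven in RNA quality, and the part of this in the 198 calls was not tested.

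The widest separation between the compounds was that of Ciita, the transactivator that switches on class II antigen presentation genes. Its first probe set scored 0.62, 0.701 and 0.587 in M500, against -0.235, -0.24, -0.252 and -0.329 in P500. All of these lay under the bioB control, whose lowest normalized score on the 7 arrays was 0.805. The groups did not overlap, and the gap between the lowest M500 and the highest P500 value, 0.822, was the widest of all probe sets. The difference was 0.9 (95% interval 0.465 to 1.33) and did not pass in the fit over 31 arrays (adjusted p = 0.272). It was 0.924 without M500 replicate 04.

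The second Ciita probe set separated the groups in the same direction. It scored 0.882, 1.08 and 0.828 in M500, against 0.319, 0.337, 0.347 and 0.267 in P500, a difference of 0.613 (adjusted p = 0.328). Over the 31 arrays both probe sets of the gene had a Pearson r of 0.947, and over the 24 arrays outside M500 and P500 of 0.929, given as a description of arrays that share groups.

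Ciita varied as widely between animals of single groups elsewhere in the series. In Control the first probe set measured 0.834 on replicate 02, one of the arrays with a wide spread of scores. The other Control arrays measured 0.518, 0.442, 0.24, 0.0579 and -0.221. All of these lay below M500 and above P500, though the lowest was close to the highest P500 value, -0.235. On the second probe set Control replicates 02, 03 and 04 measured 0.964, 0.973 and 0.885, inside the M500 range of 0.828 to 1.08. The within-group SD of the first probe set was 0.0586 in M500 and 0.0442 in P500, but 0.37 in Control, 0.377 in M2000 and 0.212 in P2500. At the high doses, which are not matched, the first probe set averaged 0.191 in M2000 and 0.65 in P2500, the opposite order to that at 500 ppm. P2500 replicates 02, 03 and 04, in which Alb scored 3.89 to 4.15, had Ciita at 0.885, 0.754 and 0.76, and the other P2500 arrays had 0.401 and 0.45; the part of liver RNA in this was not tested.

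The call depended on which arrays set the spread. When the 7 arrays alone were fitted, 2 probe sets passed (0.00644%): the first of Ciita (difference 0.9, adjusted p = 0.000709) and 1384086_at, which has no gene symbol (difference -0.699, adjusted p = 0.0258). Without M500 replicate 04 that fit called 4: both Ciita probe sets, 1384086_at and P4ha3, a collagen prolyl hydroxylase. That fit takes the small spread of Ciita within these 2 groups as its error. Within the earlier animal number series, to which all 7 animals belong, 0 probe sets passed.

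The other genes of class II antigen presentation did not separate the groups with Ciita. This list was drawn up after the values of Ciita were seen. Of its 13 measured genes, 2 were higher in M500 at p under 0.05, Ciita itself and RT1-DMb, a chain of the peptide loader (0.208, 0.313 and 0.288 in M500, 0.131 to 0.221 in P500, adjusted p = 0.658). Background shares were 3.05% of all genes higher and 4.45% lower at that p. Cd74, the invariant chain, measured 0.898, 0.867 and 0.803 in M500, against 0.9, 0.685, 0.839 and 0.75 in P500, a difference of 0.0623 (95% interval -0.115 to 0.239). RT1-Da, an alpha chain, differed by 0.0398 (95% interval -0.108 to 0.188).

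RT1-Bb, a beta chain of class II, gave opposite signs on its 2 probe sets. On the first it measured 0.93, -0.387 and 0.525 in M500, against 1.08, 1.26, 0.769 and 1.19 in P500. On the second it measured 1.01, 1.53 and 0.934 in M500, against 0.806, -0.13, 0.995 and -0.163 in P500. The differences were -0.719 and 0.783, and over the 31 arrays the Pearson r between the 2 probe sets was -0.79. No direction can be given for this gene.

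**Figure D2:**
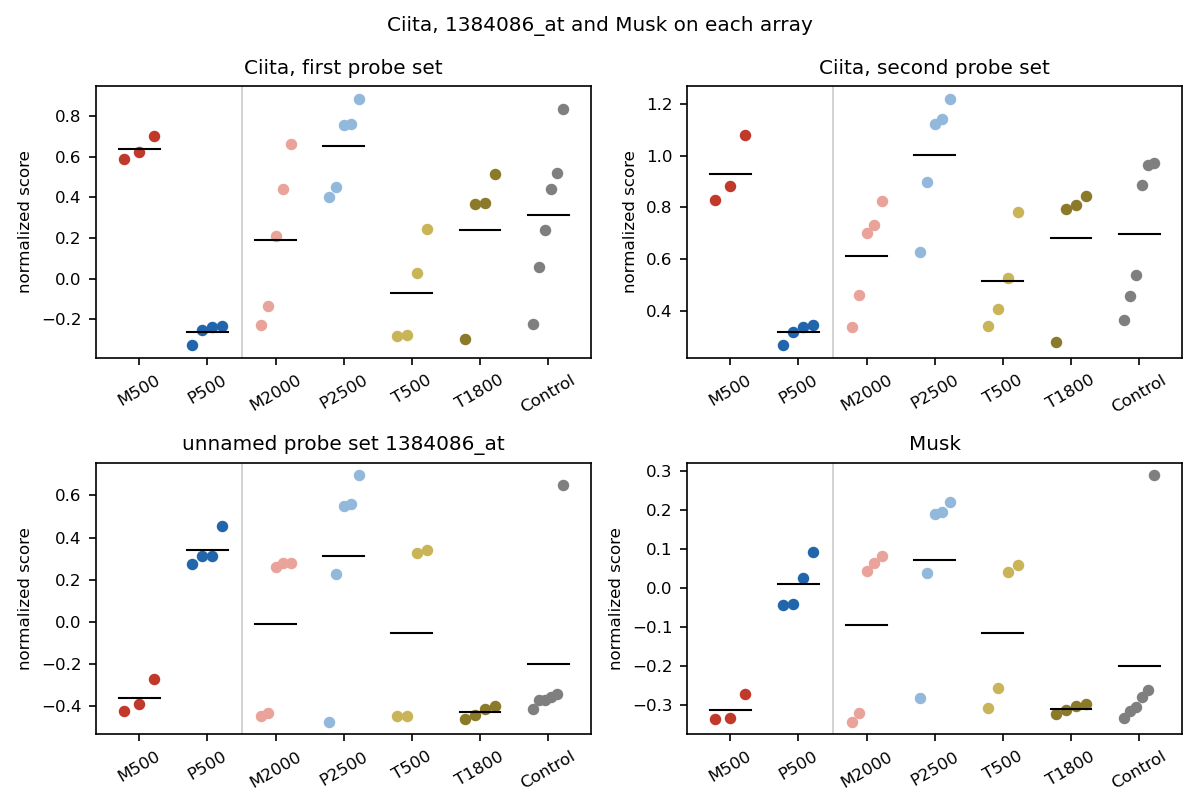
Normalized score (y axis) of both Ciita probe sets, of 1384086_at and of Musk on each of the 31 arrays by group, with a black line at each group mean. M500 and P500 are separated in all 4 panels, at 0.587 to 0.701 and -0.329 to -0.235 for the first Ciita probe set, and Control arrays spread from -0.221 to 0.518 in that panel apart from replicate 02 at 0.834.

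The probe set 1384086_at and Musk, the receptor kinase of the neuromuscular junction, lay on separate levels across the animals. On 1384086_at M500 measured -0.421, -0.387 and -0.269, against 0.314, 0.277, 0.314 and 0.453 in P500. No array of the 31 fell between -0.269 and 0.228. Above 0 lay 0 of 3 M500 arrays, 4 of 4 P500, 3 of 5 M2000, 4 of 5 P2500, 2 of 4 T500, 0 of 4 T1800 and 1 of 6 Control arrays.

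Musk followed 1384086_at from array to array, with a Pearson r of 0.973 over the 31 arrays. It measured -0.272, -0.336 and -0.332 in M500, against 0.0944, -0.0399, -0.042 and 0.0269 in P500, a difference of -0.323 (95% interval -0.594 to -0.0524, adjusted p = 0.575). The groups did not overlap. Between Ciita and 1384086_at r was -0.0171 over the same arrays and 0.293 over the 24 outside M500 and P500. On the M500 and P500 arrays both 1384086_at and Musk lay under the bioB control, whose lowest normalized score there was 0.805. What sets the level of 1384086_at or Musk in an animal was not tested.

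Ppm1a, a phosphatase that acts on SMAD and stress kinase signalling, had the widest gap after Ciita and 1384086_at (0.313). It measured 1.49, 1.5 and 1.25 in M500, against 1.9, 1.81, 1.91 and 1.85 in P500, a difference of -0.456 (95% interval -0.695 to -0.216, adjusted p = 0.327). Control replicate 02 measured 1.19 and the other Control arrays 1.64 to 1.91, all of these above M500. Ppm1a, Musk and 1384086_at were chosen for their gap after their values were seen. Ciita was named for its small p and its gap in these same values. The separation of all of these is therefore a description.

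Leydig cell genes were measured first among the pathways that triazoles can reach. Of the 19 steroidogenesis genes measured, 0 passed, 2 were higher in M500 at p under 0.05 (all genes 3.05%), 0 were lower, and the median difference was 0.0396, beside -0.0036 over all 14217 genes. It was 0.0699 without M500 replicate 04, with 1 higher. In whole testis, fewer Leydig cells and less RNA per cell cannot be told apart.

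Import of cholesterol and the first step did not separate the groups. Star, the import protein, measured 1.01, 0.951 and 0.428 in M500, against 0.789, 0.708, 0.896 and 0.437 in P500. The lowest value in each group came from replicate 04, and the difference was 0.0877 (95% interval -0.221 to 0.397), or 0.271 without M500 replicate 04, while the second probe set of Star differed in sign. Cyp11a1, which cleaves the side chain of cholesterol, measured 1.25, 1.4 and 1.31 in M500, against 1.16, 0.876, 1.33 and 0.952 in P500, a difference of 0.242 (95% interval -0.0371 to 0.52).

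The dehydrogenase Hsd3b1, which makes progesterone from pregnenolone, had the smallest p of the list. It measured 1.6, 1.34 and 1.73 in M500, against 1.2, 1.11, 1.24 and 1.52 in P500. The groups overlapped through P500 replicate 04. The difference of 0.285 (95% interval 0.0325 to 0.538) had an adjusted p of 0.615, and it was 0.197 without M500 replicate 04.

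Fdx1, adrenodoxin, which hands electrons to Cyp11a1, measured 1.81, 2.00 and 2.1 in M500, against 1.83, 1.86, 1.84 and 1.53 in P500. Its difference of 0.207 (adjusted p = 0.658) was 0.128 without P500 replicate 04, the array with the largest actin gap of P500, and 0.141 without M500 replicate 04. Cyp17a1, the hydroxylase and lyase that opens the way to androgens, averaged 1.77 ± 0.0335 in M500 and 1.65 ± 0.251 in P500, a difference of 0.118 (95% interval -0.232 to 0.469). The 3 M500 values, 1.78, 1.79 and 1.73, lay inside the P500 range of 1.34 to 1.9.

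The remaining Leydig genes overlapped as well. Hsd17b3, which makes testosterone, differed by 0.0285 (95% interval -0.0323 to 0.0893), Lhcgr, the luteinizing hormone receptor, by 0.0616 (-0.0846 to 0.208) and Por, the electron donor of microsomal P450 enzymes, by -0.00531 (-0.116 to 0.105). Insl3, a Leydig cell hormone, measured 1.36, 1.45 and 0.767 in M500, against 1.2, 0.881, 1.26 and 0.885 in P500. Its difference of 0.132 had an interval from -0.309 to 0.573. Without M500 replicate 04 the difference was 0.344 for Insl3, 0.0151 for Lhcgr and 0.0611 for Por, which turned sign.

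**Figure D3:**
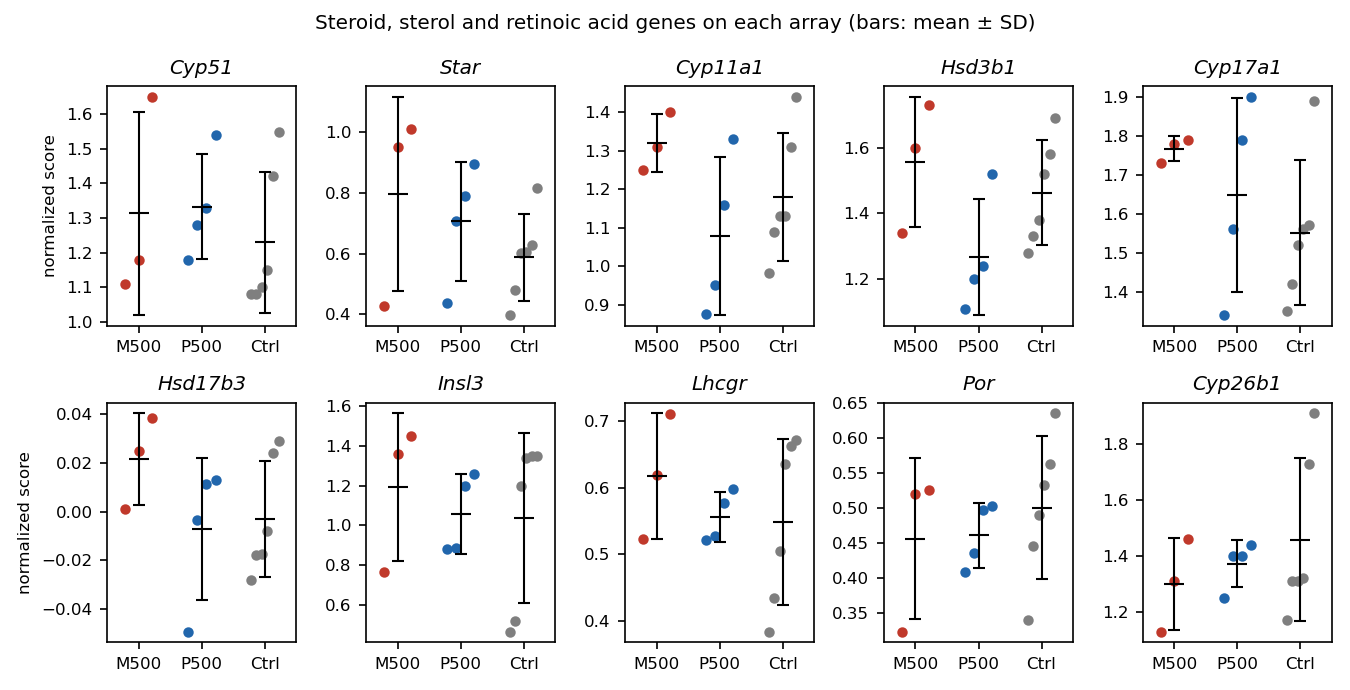
Normalized score (y axis, a scale of its own in each panel) of 10 steroid, sterol and retinoic acid genes on each M500, P500 and Control (Ctrl) array, with black bars for the mean ± SD of 3, 4 and 6 arrays. M500 and P500 points overlap in all 10 panels, as for Cyp17a1 at 1.73 to 1.79 in M500 and 1.34 to 1.9 in P500.

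Cyp51, the mammalian form of the fungicides' target, did not differ detectably. It measured 1.18, 1.11 and 1.65 in M500, against 1.18, 1.33, 1.28 and 1.54 in P500. In both groups the highest value was that of the array with the largest actin gap. The difference was -0.0183 (95% interval -0.323 to 0.287), and it was -0.184 without M500 replicate 04. Its second probe set differed in sign.

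Sterol synthesis and uptake as a list, Cyp51 included, had no call. Of 23 genes measured, 0 passed, 0 were higher at p under 0.05 (all genes 3.05%), 2 were lower (all genes 4.45%), and the median difference was that of Cyp51 itself. The mean level of the list was 0.624 to 0.662 in M500, 0.665 to 0.674 in P500 and 0.624 to 0.664 in Control. For 1 of the 23 all M500 values lay below all P500 values (all genes 3.43%), and for 0 all lay above. Member differences ran from -0.148 for Sqle to 0.0876 for Idi1, an isomerase of the pathway. Sqle, squalene epoxidase, measured 1.36, 1.25 and 1.22 in M500, against 1.36, 1.44, 1.42 and 1.48 in P500, a difference of -0.148 (adjusted p = 0.48) that was 0.0505 with the scores as deposited. Mvk, mevalonate kinase, differed by -0.11 (adjusted p = 0.619), and by -0.0501 without M500 replicate 04.

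Retinoic acid genes were listed because triazoles can also reach the P450 enzymes that break it down. Cyp26b1, one of these, measured 1.31, 1.13 and 1.46 in M500, against 1.25, 1.4, 1.44 and 1.4 in P500, a difference of -0.0748 (95% interval -0.371 to 0.222) that was -0.153 without M500 replicate 04. Of the 20 genes of the list 0 passed, 0 were higher at p under 0.05 (all genes 3.05%) and 1 was lower (all genes 4.45%). That gene was Aldh1a2, which makes retinoic acid (difference -0.122, adjusted p = 0.613, 0.222 with the scores as deposited). The list's median was -0.00523.

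Xenobiotic metabolism, the response that triazoles evoke in liver, showed 0 calls among 32 genes. At p under 0.05 there was 1 higher (all genes 3.05%) and 0 lower (all genes 4.45%). Abcg2, an efflux transporter, measured 0.408, 0.44 and 0.501 in M500, against 0.314, 0.383, 0.355 and 0.384 in P500, a difference of 0.0903 (adjusted p = 0.591). For 5 of the 32 all M500 values lay above all P500 values (all genes 2.64%), and for 0 all lay below. Besides Abcg2 they were the glutathione transferase Gsta4, Cyp4a1, the transporter Abcc2 and the glucuronosyltransferase Ugt2b1, with differences of 0.0403 to 0.137. Cyp4a1, Abcc2 and Ugt2b1 scored below 0 on each of the 7 arrays, and the median of the list was 0.0152, or 0.0572 without M500 replicate 04. Several members were raised in P2500 replicates 02, 03 and 04, which widened their error in the fit over all groups. Ugt2b1, at 0.561 to 0.661 on those arrays, had a standard error of 0.138, against SDs of 0.0149 in M500 and 0.0211 in P500. For such genes a p above 0.05 says little.

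Among stress and metabolic lists there were likewise 0 calls. Fatty acid oxidation had 28 genes measured, with a median of -0.036. At p under 0.05, 0 were higher (all genes 3.05%) and 1 was lower (all genes 4.45%). The lower one was Hadha, an alpha subunit of the mitochondrial trifunctional enzyme (difference -0.174, adjusted p = 0.528, -0.107 without M500 replicate 04, 0.322 with the scores as deposited). NRF2 and antioxidant genes, 21 measured, had 1 higher, the sulfiredoxin Srxn1 (0.0718, adjusted p = 0.664), 0 lower and a median of 0.0291. For 2 of the 21 all M500 values lay above all P500 values (all genes 2.64%), and for 0 all lay below. The mean level of the list was 0.931 to 0.945 in M500, 0.868 to 0.91 in P500 and 0.805 to 0.926 in Control. Both other probe sets of Srxn1 differed in sign.

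The endoplasmic reticulum list, 20 genes, had 1 higher (all genes 3.05%) and 1 lower (all genes 4.45%) at p under 0.05. Xbp1, a transcription factor of the unfolded protein response, differed by 0.113 (adjusted p = 0.647) and the chaperone Hsp90b1 by -0.166 (adjusted p = 0.565, 0.521 with the scores as deposited). Of the 22 heat shock and immediate early genes 0 had p under 0.05, with a median of 0.0195. Of the 19 p53 and apoptosis genes 1 was lower, Casp9, an initiator caspase (-0.0687, adjusted p = 0.562), with 1 of its 2 other probe sets of opposite sign.

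Germ cell markers did not pass either, although the 4 list medians of germ and Sertoli cells were small. Medians were -0.0229 for 18 Sertoli and androgen response genes, 0.00213 for 9 spermatogonial, -0.0318 for 15 spermatocyte and -0.019 for 19 spermatid genes. The members at p under 0.05 numbered 0 higher and 2 lower, 1 and 0, 0 and 2, and 0 and 1 in that order, beside 3.05% of all genes higher and 4.45% lower. All M500 values lay below all P500 values for 2 of the 15 spermatocyte and 1 of the 19 spermatid genes (all genes 3.43%). They all lay above for 1 of the 9 spermatogonial genes (all genes 2.64%). Without M500 replicate 04 the medians were -0.0193, -0.0158, -0.0513 and 0.00235, so those of spermatogonia and spermatids turned sign, and the Sertoli list then had 0 members at p under 0.05.

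Stag3, a cohesin subunit of meiosis, led the spermatocyte list. It measured 2.3, 2.26 and 2.36 in M500, against 2.43, 2.51, 2.48 and 2.54 in P500, a difference of -0.185 (95% interval -0.276 to -0.0945, adjusted p = 0.272). The groups did not overlap on this scale, but the difference was 0.393 with the scores as deposited, on which M500 replicate 04 has the widest spread. The same turn of sign was found for the chaperone Hspa2 of spermatocytes (-0.243, 0.511 as deposited), the sperm tail anchor Akap4 (-0.158, 0.831) and the Sertoli secretory gene Clu (-0.175, 0.588), for which no direction is therefore given. Without M500 replicate 04 the normalized differences were -0.104 for Hspa2, -0.0918 for Akap4 and -0.00558 for Clu.

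Nanos3, an RNA-binding protein of early germ cells, measured 0.108, 0.108 and 0.0431 in M500, against 0.028, -0.00937, 0.0146 and -0.0153 in P500. The groups did not overlap, and the difference was 0.0816 (adjusted p = 0.503). Gata4, a transcription factor of Sertoli and Leydig cells, differed by -0.152 (adjusted p = 0.565), with a second probe set of opposite sign.

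Decorin had the largest difference of the matrix genes measured. Of 17 fibroblast and matrix genes 0 passed, and 2 were higher (all genes 3.05%) and 1 lower (all genes 4.45%) at p under 0.05. In each direction 2 were separated (all genes 2.64% above and 3.43% below), and the median was 0.0441. Dcn, decorin, a collagen-binding proteoglycan, measured 0.895, 1.53 and 0.847 in M500, against 0.688, 0.422, 0.636 and 0.454 in P500. The groups did not overlap. The difference was 0.54 (95% interval 0.146 to 0.934, adjusted p = 0.513), and 0.661 without M500 replicate 04.

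Lum, lumican, a relative of decorin, measured -0.395, 0.0955 and -0.112 in M500, against -0.491, -0.497, -0.423 and -0.444 in P500, a difference of 0.327 (adjusted p = 0.647). M500 replicate 02 was the highest of the 7 arrays for both proteoglycans. The basement membrane collagen Col4a1 measured 0.521, 0.384 and 0.442 in M500, against 0.535, 0.557, 0.523 and 0.544 in P500, a difference of -0.0903 (adjusted p = 0.473). The fibrillar collagens Col1a1, Col3a1 and Col1a2 differed by 0.281, 0.299 and 0.241, none with p under 0.05.

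Peritubular and smooth muscle genes, 14 measured, had 1 higher (all genes 3.05%) and 1 lower (all genes 4.45%) at p under 0.05. Smooth muscle myosin Myh11 measured 1.19, 1.07 and 1.19 in M500, against 1.29, 1.34, 1.37 and 1.24 in P500, a difference of -0.159 (adjusted p = 0.361) that was 0.0225 with the scores as deposited. Caldesmon, Cald1, differed by 0.138 (adjusted p = 0.647), and by 0.0572 without M500 replicate 04. Both genes had a further probe set of opposite sign.

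Markers of other cells were sparse in differences. Macrophage (21 genes), endothelial (12), mast cell (10), erythrocyte (7) and epididymis (7) lists had 0 members at p under 0.05. Of 11 lymphocyte genes 2 were lower at that p (all genes 4.45%) and 0 higher (all genes 3.05%). For 1 of the 11 all M500 values lay above all P500 values (all genes 2.64%). Lck, a T cell kinase, differed by -0.298 (adjusted p = 0.565, or -0.186 without M500 replicate 04) and Cd3d by -0.0529 (adjusted p = 0.665). Of 11 adipocyte genes 1 was lower, the lipase Pnpla2 (-0.163, adjusted p = 0.503, 0.113 with the scores as deposited).

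**Figure D4:**
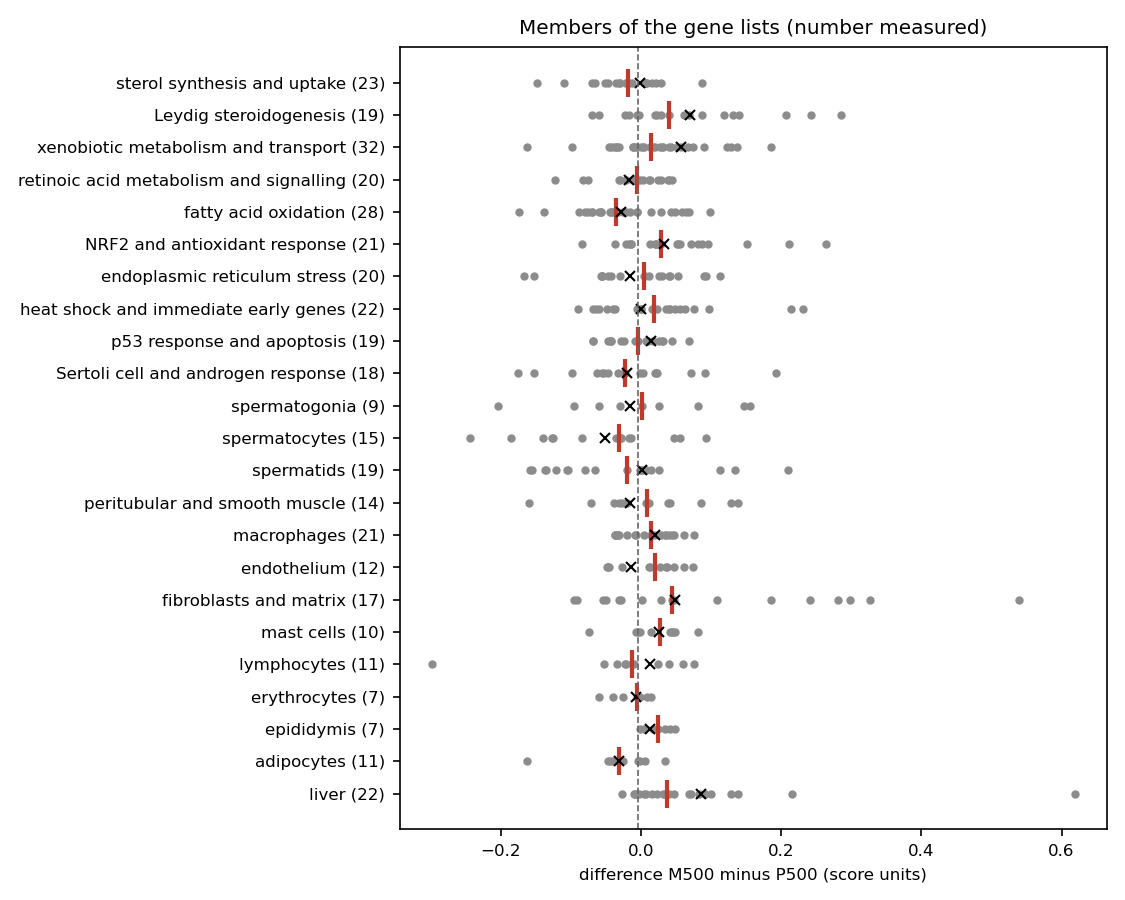
Difference M500 minus P500 in score units (x axis) of each measured member (grey points) of 23 gene lists, with the list median (red bar), the median without M500 replicate 04 (black cross) and the median over all genes (dashed line, -0.0036). List medians lie between -0.036 and 0.0441, and Dcn at 0.54 and Alb at 0.619 (0.96 without M500 replicate 04) are the farthest members.

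Genes of smallest p on the M500 side were mostly weakly expressed. Of the 12, 10 lay at or under the bioB control on all 7 arrays, and 0 lay above it on all 7. The second of these counts is strict, because M500 replicate 04 had a far higher bioB score than the others. The smallest p belonged to Mecom, a zinc finger transcription factor, which measured -0.162, -0.142 and -0.125 in M500, against -0.253, -0.239, -0.235 and -0.272 in P500. The groups did not overlap, the difference was 0.107 (95% interval 0.0682 to 0.145, adjusted p = 0.156), and the second probe set of Mecom differed by -0.0103. Atp1b4, a muscle protein related to the sodium pump, differed by 0.135 (adjusted p = 0.17), and Prox1, a homeobox factor of lymphatic vessels, by 0.166 (adjusted p = 0.272).

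Better expressed genes on that side included Morn1 and Mkks. Morn1, a repeat protein, measured 1.16, 1.18 and 1.25 in M500, against 0.965, 0.884, 0.937 and 1.01 in P500, a difference of 0.245 (adjusted p = 0.272). Mkks, a chaperonin-like protein of the cilium base, measured 0.891, 1.04 and 0.983 in M500, against 0.671, 0.591, 0.712 and 0.653 in P500, a difference of 0.315 (95% interval 0.158 to 0.471, adjusted p = 0.273). Both were separated without overlap. Mkks was 0.309 without M500 replicate 04.

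Kremen1, a Wnt pathway receptor, was uneven among the animals. It measured -0.0131, -0.22 and 0.234 in M500, against -0.298, -0.333, -0.302 and -0.23 in P500, a difference of 0.291 (adjusted p = 0.272) and 0.174 without M500 replicate 04. The other genes on this side were the BMP pathway inhibitor Smad6 (0.125), the histone gene Hist4h4 (0.248), Atp13a5 (0.115), the GABA receptor gene Gabra6 (0.109) and Hadh, a dehydrogenase of fatty acid oxidation (0.0952), with adjusted p from 0.272 to 0.303. Without M500 replicate 04 Smad6 differed by 0.0828 and Hadh by 0.0618. Hist4h4 belongs to a family of near-identical copies, so its probe set may read several. Second probe sets of Prox1, Gabra6 and Hadh differed in sign, as did 1 of the 3 others of Smad6.

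Genes of smallest p on the P500 side were better expressed than those on the M500 side. Of the 12, however, only 2 lay above the bioB control on all 7 arrays, and 4 lay at or under it on all 7. The first of these counts is strict, because M500 replicate 04 had a deposited bioB score of 2.1, against 0.815 to 0.953 on the others. Phc1, a polycomb protein, measured 1.98, 1.94 and 1.87 in M500, against 2.06, 2.16, 2.18 and 2.2 in P500, a difference of -0.221 (95% interval -0.31 to -0.133, adjusted p = 0.17). Kdm5b, a histone demethylase, measured 1.33, 1.22 and 1.24 in M500, against 1.37, 1.43, 1.45 and 1.38 in P500, a difference of -0.145 (adjusted p = 0.194). Both turned sign with the scores as deposited (0.192 and 0.0553), as did the chromatin protein Kansl3 (-0.177, 0.0261 as deposited).

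Others on that side kept a negative difference with the scores as deposited. Sf1, a splicing factor, measured 1.04, 0.962 and 1.02 in M500, against 1.2, 1.25, 1.3 and 1.11 in P500, a difference of -0.208 (adjusted p = 0.272). Nat10, an RNA acetyltransferase, measured 0.3, 0.264 and 0.365 in M500, against 0.5, 0.568, 0.53 and 0.639 in P500, a difference of -0.25 (adjusted p = 0.272). Nat10 was 0.332 ± 0.053 in Control, close to M500. Efr3a, a membrane scaffold, differed by -0.255, the kinase Riok3 by -0.261 (-0.162 without M500 replicate 04), Zc3h7b, a zinc finger protein, by -0.16 and the cytoskeletal adducin Add1 by -0.124, all with adjusted p = 0.272.

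Other probe sets of Riok3 (1 of 2) and Kdm5b (2 of 4) differed in sign. Of Zc3h7b, Efr3a and Add1 every probe set differed in the same direction, as did both of Sf1. The differences on their other probe sets were smaller, from -0.132 to -0.00268, none with p under 0.05 (limma). The 2 least expressed genes on this side were Shank3, a synaptic scaffold (-0.101), and Opn4, melanopsin (-0.0922), with adjusted p = 0.272 each. Groups overlapped for Shank3 and for Gabra6 and for none of the other 22 leading genes.

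**Figure D5:**
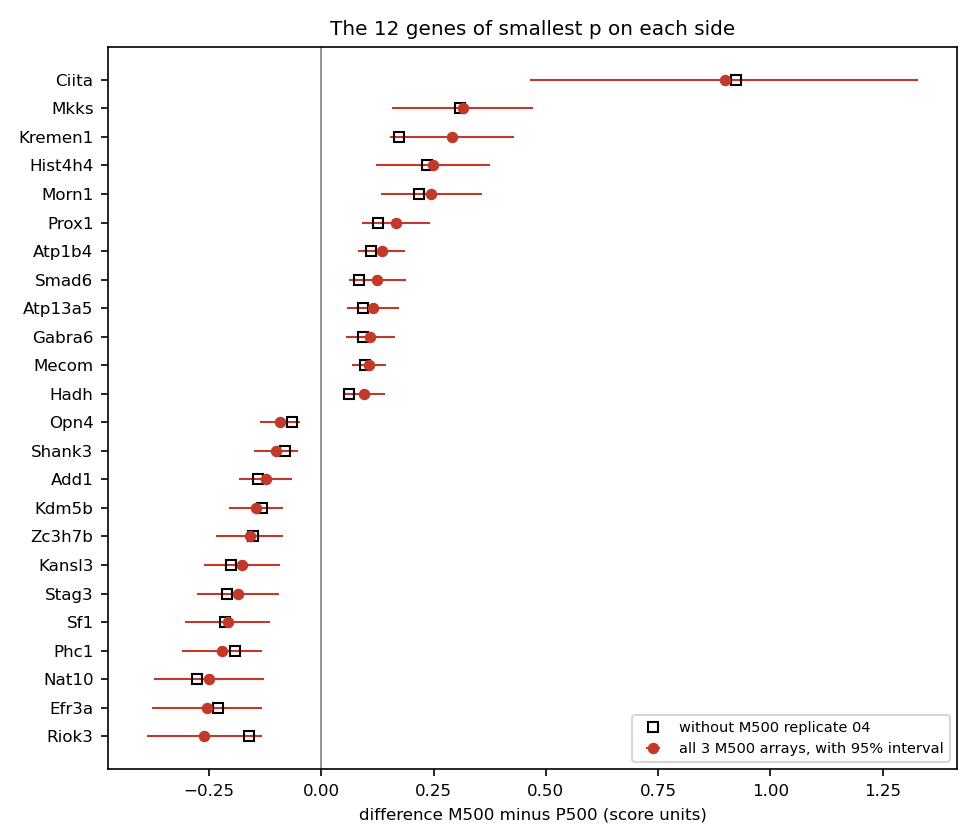
Difference M500 minus P500 in score units (x axis) with its 95% interval for the 12 genes of smallest p on each side, and the difference without M500 replicate 04 (open squares). Ciita at 0.9 is the largest, and Riok3 (-0.261, or -0.162 without that array) and Kremen1 (0.291, or 0.174) move the most.

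Dact1, a Wnt pathway adaptor, was called under other treatments of the scores. It measured 1.02, 1.21 and 0.872 in M500, against 0.761, 0.682, 0.701 and 0.591 in P500, a difference of 0.35 (95% interval 0.153 to 0.547, adjusted p = 0.361). With the scores as deposited the difference was 0.458 (adjusted p = 0.044), and with the 5 arrays of large actin gap left out it was 0.431 (adjusted p = 0.00925). It was named after its values were seen, and its second probe set differed in sign. Against Control the difference of Dact1 was 0.405 for M500 and 0.0546 for P500, with adjusted p = 0.106 and 1.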

How the data were processed

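Testis RNA was measured on 1-colour Affymetrix arrays. The authors deposited 1 score for each probe set, log-like and centred near 0 on each array. Their summary, background correction and normalization are not given in the sources used here, per the labels, so the base of the scale is unknown. RNA was DNase-treated, cleaned and labelled as biotin cRNA, per the labels' protocols.

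The 31 arrays were quantile normalized and fitted with limma 3.58.1 (R 4.3.3; lmFit with a mean for each of 7 groups, eBayes). Benjamini-Hochberg adjustment ran over 31042 probe sets, after leaving out 57 control probe sets of 31099, with 0.05 as the threshold. The platform annotation gave 20826 probe sets 1 symbol, 436 several and 9780 none (14217 genes). Of the gene IDs, 20758 were found in the RefSeq table and 0 symbols changed. Hsd3b2 was not named. Lists used 1 probe set per gene, that of highest mean.

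Named were the 12 genes of smallest p on each side (placeholder names skipped), up to 4 members of each list with the smallest p, and Cyp51, Star, Cyp11a1, Hsd3b1, Cyp17a1, Hsd17b3, Insl3, Lhcgr, Por and Cyp26b1. The comparison, the lists and these rules were chosen with earlier results of these data known. Alternatives changed the scale, the arrays fitted, the covariates, the filter on low probe sets and the replicates. The fit was tested on simulated data.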

Additional observations from a re-analysis of the deposited data

Results flagged for a closer look

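Among 64 probe sets named for M500 and P500, 1 had a P500 array far from the other 3, and about 1 in 20 groups would show such a value by chance. Fdx1, adrenodoxin, measured 1.53 in P500 replicate 04, against 1.83 to 1.86 in the other P500 arrays and 1.81 to 2.10 in M500. M500, with 3 arrays, was not examined in this way.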

How the results depend on the processing

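Calls between M500 and P500 stayed at 0 within the earlier animal series, without the 3 P2500 arrays with liver transcripts, with array weights, with both filters on low probe sets, and with trend and robust eBayes. There was 1 call with the scores as deposited and 1 with scaling by median absolute deviation (Dact1 in both), and 2 when the 7 arrays were fitted alone, normalized with the others or apart. There were 11 once arrays with an actin gap over 1.4 were left out, and 15 when the gap was a covariate. Fits of the 7 arrays alone, added after seeing the data, gave 4 calls without M500 replicate 04 and 2 on deposited scores. Leaving out 1 replicate gave 0 to 19. M500 minus Control had 6 calls as deposited, 15 by median absolute deviation and 18 without large actin gaps (added after seeing the data), and P500 minus Control 198 in the last of these. The causes were not tested. Separated probe sets numbered 3176 as deposited and 2548 to 5577 with 1 replicate left out (1852 with all 7), where fewer arrays make separation easier.

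Replicate numbers were not taken to pair the animals, since same-numbered M500 and P500 arrays deviated from their group means with r of 0.477, 0.0771 and 0.474 for numbers 01, 02 and 04, and that of number 02 correlated better with P500 replicate 01. With the replicate number as a block the count was 2 (Ciita and 1384086_at), and the difference of Por was 0.00668.

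Scaling moved several differences across 0. As deposited and by median absolute deviation they were 0.192 and 0.192 for Phc1, 0.0553 and 0.0447 for Kdm5b, 0.0261 and 0.015 for Kansl3, 0.393 and 0.401 for Stag3, 0.248 and 0.241 for Cyp51, 0.0238 and 0.00253 for Por, and 0.162 and 0.153 for Cyp26b1. They were 0.0505 and 0.0394 for Sqle, 0.222 and 0.22 for Aldh1a2, 0.322 and 0.327 for Hadha, 0.521 and 0.536 for Hsp90b1, and 0.588 and 0.607 for Clu. For Hspa2 they were 0.511 and 0.528, for Akap4 0.831 and 0.859, for Myh11 0.0225 and 0.0106, and for Pnpla2 0.113 and 0.108. The deposited values were the same with the 7 arrays alone. The difference of Por was 0.0489 with array weights and 0.0611 without large actin gaps, and that of Cyp51 0.016 with the actin covariate. Leaving out 1 replicate gave -0.184 to 0.0818 for Cyp51, -0.0183 to 0.271 for Star, -0.0399 to 0.0611 for Por and -0.153 to 0.0103 for Cyp26b1. The actin gap difference was 0.429 as deposited and -0.314 to 0.106 with 1 replicate left out. Fewer than 1 in 6 probe sets of an array lay above bioB (6.55% to 16.1%). Background was not measured, so how near to it the named genes of low score lay is not known.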
